A study of Mus musculus with 7 samples.

Results

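Oxidative phosphorylation genes were examined in bulk RNA sequencing of mouse epidermis after loss of Abca12. They were taken as all genes of the deposited table whose symbol begins with Nduf, Uqcr, Cox4 to Cox8 or Atp5, is Sdha to Sdhd, Cyc1 or Cycs, or begins with mt-, the prefix of genes encoded by mitochondrial DNA (mtDNA). The rule found 104 of the 7091 genes in the table, 81 encoded in the nucleus and 23 in mtDNA. Of the nuclear genes, 38 belong to complex I, 4 to complex II, 9 to complex III, 12 to complex IV and 16 to complex V, 1 is cytochrome c and 1 is a pseudogene. The mtDNA genes are 10 of its 13 messenger RNAs, 2 ribosomal RNAs and 11 transfer RNAs.

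The respiratory chain is built in the inner mitochondrial membrane. Complexes I and II pass electrons to ubiquinone, complex III passes them on to cytochrome c, and complex IV passes them to oxygen, while complexes I, III and IV pump the protons that drive ATP synthesis by complex V. Most subunits are encoded in the nucleus, and a small core of subunits of complexes I, III, IV and V is encoded in mtDNA, which is transcribed into long precursors that are cut into messenger, ribosomal and transfer RNAs.

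The 4 KA mice carry K14-CreERT, a tamoxifen-dependent recombinase driven by the keratin 14 promoter of basal keratinocytes, together with the conditional allele of Abca12 (ABCA12-cKO), which encodes a lipid transporter of the skin barrier. The 3 controls carry the conditional allele (ABCA12-c/c) without CreERT. Both groups were 8 weeks old when tamoxifen (1 mg for each 40 g of weight) was injected daily for 3 days, so the groups differ in the deletion and in the presence of the recombinase together. Epidermis of telogen skin, the resting phase of the hair cycle, was taken 2 weeks after tamoxifen. KA 1 and KA 2 are males and KA 3 and KA 4 females, control 2 is a male and controls 1 and 3 are females. Each title names 1 animal by number.

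The table lists only genes that the authors called changed between these same libraries, 36.5% of the 19407 genes over which their adjustment ran. Being called in it is therefore not independent evidence, and genes of the pathway that are not in it were not analysed here. Reads in listed genes came to between 9590718 and 12761458 per library, and the authors' size factors lay between 0.888 and 1.247. Levels below are normalized reads, the authors' counts divided by those factors. Fold changes, their standard errors (SE) and adjusted p-values come from edgeR's quasi-likelihood test on the counts with Benjamini-Hochberg adjustment over the 6761 listed genes with enough reads, called at 0.05. In bulk samples fewer cells of a type and less RNA per cell cannot be told apart. Abca12 itself was not analysed here, so the genotypes are those of the labels. Of the keratinocyte markers, Krt5 and Krt14 of basal cells and Krt1 of suprabasal cells were abundant in all 7 libraries (lowest value 44379 normalized reads, for Krt1 in control 3). These and Sfn were higher in KA, whereas the other keratinocyte markers listed, Krt15, Col17a1, Dsg1a and Itgb4, were lower. Of 10 markers of dermal fibroblasts and 6 of mast cells none is in the table.

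The genes moved in 1 direction. In the authors' deposited table all 104 were higher in KA, by 0.43 to 4.87 on the log2 scale, where 52.6% of all listed genes were higher. In the refit, 100 of the 104 had enough reads, and all 100 were called higher in KA and 0 lower, against 52.5% of the tested genes called higher and 47.5% called lower. In 99 of the 104 the 4 KA values lay above all 3 control values, which held for 48.8% of all listed genes, and the 5 exceptions (mt-Rnr1, mt-Nd2, mt-Co1, mt-Nd4 and mt-Nd5) are all encoded in mtDNA. The median log2 fold change was 0.94 over the 80 nuclear genes tested and 0.79 over the 20 mtDNA genes, beside 0.36 over all genes tested. Scaling by factors computed from the listed genes alone (TMM) moved the median of all genes by -0.134, and left 79 nuclear and 16 mtDNA genes called higher, where 44% of all tested genes were.

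Among the nuclear genes the median log2 fold change was lowest in complexes II (0.74) and I (0.84), and higher in complexes III (1.02), V (1.05) and IV (1.18). The single gene of cytochrome c stood at 1.43. The ranges overlapped widely, from 0.43 to 1.48 in complex I, 0.51 to 1.32 in complex II, 0.70 to 1.61 in complex III, 0.76 to 1.78 in complex IV and 0.53 to 1.81 in complex V, and the differences between complexes were not tested. Messenger RNAs encoded in mtDNA had a median of 0.65, ribosomal RNAs of 0.62 and the 8 transfer RNAs tested of 1.79. Few reads fell on most transfer RNAs, and the table lists only genes that were called. The last median is therefore over transfer RNAs that changed enough to be called on few reads. Differences between the kinds of RNA were not tested.

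**Figure D1:**
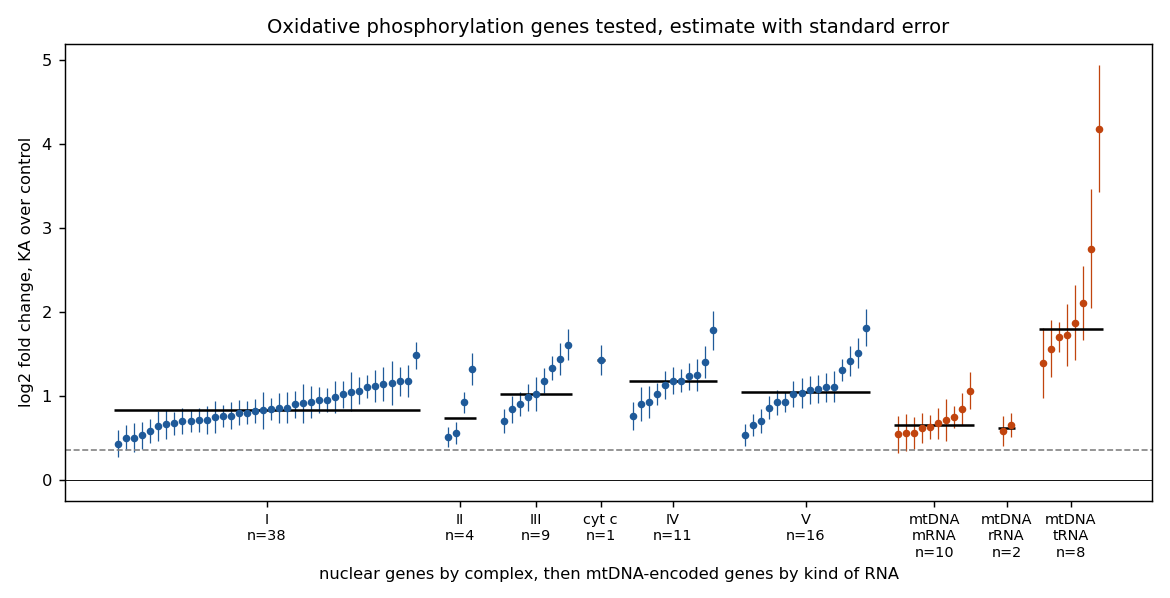
Log2 fold change of each gene tested except the pseudogene Atp5l2-ps (vertical axis, point with standard error), grouped along the horizontal axis by nuclear complex (blue) and by kind of mtDNA-encoded RNA (orange). Black bars are group medians and the dashed line is the median of all tested genes, 0.36. All points lie above it. The mtDNA messenger RNAs (median 0.65) lie lower than the transfer RNAs (median 1.79), most of which have few reads and are listed only where called.

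Complex I, NADH dehydrogenase, was represented by 7 of 7 nuclear core catalytic subunits, 26 of 30 supernumerary subunits and 5 of 8 assembly factors whose symbols fit the rule. The core subunits, which carry the flavin and iron-sulfur clusters, were higher by 0.67 (Ndufs3) to 1.02 (Ndufs8), with a median of 0.82. The supernumerary subunits, which surround the core, had the same median of 0.82 and a wider range, from 0.43 in Ndufb4 to 1.48 in Ndufa1. Ndufa1, a small membrane subunit encoded on the X chromosome, had 619, 842 and 834 normalized reads in the 3 controls, listed here and throughout in the order of their numbers, and 2019, 2555, 2139 and 1856 in the 4 KA libraries. Its lowest KA value was above its highest control value by more than the spread of either group (log2 fold change 1.48, SE 0.16, adjusted p = 3.73e-05). Ndufa12 rose from 715, 802 and 927 to 1917, 1983, 1580 and 1579 (1.11, SE 0.14, adjusted p = 0.000101). Ndufb6 rose from 425, 575 and 645 to 1366, 1417, 1079 and 1092 (1.17, SE 0.17, adjusted p = 0.000214). However, 28.2% of its 100-base stretches also occur, on either strand, in a transcript of Smim27, a protein-coding gene that overlaps it. The strand of the match was not recorded, so whether these reads can be assigned to 1 of the pair is not known. At the other end, Ndufb4 had 612, 753 and 692 reads in controls and 1160, 932, 836 and 756 in KA (0.43, SE 0.16, adjusted p = 0.0243), with its lowest KA library barely above the highest control. The assembly factors Ndufaf2, Ndufaf4, Ndufaf5, Ndufaf6 and Ndufaf8, which help to build the complex and are not part of it, were higher by 0.75 to 1.15. Per length they had 60.1 to 453 normalized reads per kb in controls, against 587 to 1394 for the core subunits other than Ndufs1. Ndufs1 stood within their range at 160, as did some supernumerary subunits, such as Ndufab1 at 119.

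Complex II, succinate dehydrogenase, links the citric acid cycle to the chain and has no subunit in mtDNA. All 4 subunits were called higher in KA, beside 52.5% of all tested genes, and the membrane anchor Sdhd rose most. Sdhd had 977, 1155 and 1139 normalized reads in controls and 3727, 2546, 2045 and 2593 in KA (1.32, SE 0.19, adjusted p = 0.000181). The iron-sulfur subunit Sdhb had 1058, 1259 and 1395 in controls and 2652, 2323, 2169 and 2250 in KA (0.92, SE 0.13, adjusted p = 0.000188). The flavoprotein Sdha had 2874, 2997 and 3121 in controls and 5060, 4421, 3777 and 4458 in KA (0.56, SE 0.13, adjusted p = 0.00212). The KA values lay above all controls in each of these, as in 48.8% of all listed genes. The other membrane anchor, Sdhc, was the least changed at 0.51.

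In complex III, cytochrome bc1, all 9 nuclear subunits were called higher, beside 52.5% of all tested genes. Uqcrq, a small subunit, changed most, from 1161, 1756 and 1834 normalized reads to 5666, 5251, 4087 and 4366 (1.61, SE 0.19, adjusted p = 5.64e-05). Cyc1, the cytochrome c1 that hands electrons to cytochrome c, had nearly equal values of 1799, 1781 and 1832 reads in controls, against 5445, 4379, 3731 and 4577 in KA (1.33, SE 0.14, adjusted p = 3.51e-05). Uqcr11 rose from 1472, 1830 and 1922 to 4252, 4488, 3706 and 3312 (1.18, SE 0.15, adjusted p = 8.83e-05). Cycs, the mobile carrier cytochrome c, which also takes part in apoptosis, had 759, 935 and 840 reads in controls and 2793, 2460, 1655 and 2185 in KA (1.43, SE 0.18, adjusted p = 8.31e-05). Transcripts of other genes, processed copies among them, hold 24.7% of its 100-base stretches.

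In complex IV, cytochrome c oxidase, 11 of 11 nuclear subunits tested were called higher, beside 52.5% of all tested genes. Ndufa4, long counted with complex I and now assigned to complex IV, changed most, from 1331, 1801 and 1521 normalized reads to 7615, 5073, 3663 and 4964 (1.78, SE 0.23, adjusted p = 0.000124). KA 1 stood highest among the KA libraries for this gene. Cox6a1 rose from 3913, 4890 and 5458 to 11469, 11379, 10433 and 9863 (1.18, SE 0.14, adjusted p = 7.57e-05), and Cox8a from 2529, 3155 and 3028 to 6414, 6162, 5167 and 5736 (1.02, SE 0.13, adjusted p = 0.000104). These are the isoforms made in most tissues. With 6771 and 5328 normalized reads per kb in controls, Cox6a1 and Cox8a were the most abundant nuclear members per length.

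Both isoforms of subunit 4 are in the table at very different levels. Cox4i1, the common isoform, had 5014, 7556 and 8667 reads in controls and 14124, 14921, 13847 and 11147 in KA (0.93, SE 0.19, adjusted p = 0.0013). Cox4i2, known from lung and from low oxygen and the 1 listed of 8 tissue-specific isoforms of the complex, had 0 reads in every control and 5, 4, 7 and 3 in the KA libraries, too few for the test. Against a floor of 3 counts in each control it was at least 1.79-fold higher by its mean of 4.97 normalized reads. This holds for the mean alone, since KA 4 with 3 counts stood at the floor. With 0 reads in controls, Cox4i2 is in the table through its few KA reads, and it is a trace beside Cox4i1.

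Complex V, ATP synthase, had all 5 subunits of its catalytic F1 head in the table, from Atp5c1 (0.65) to Atp5e (1.11), and 11 of the membrane part and stalks, with medians of 0.92 and 1.08. Atp5mpl, a small membrane subunit, rose most, from 600, 1023 and 842 normalized reads to 3610, 3230, 2443 and 2249 (1.81, SE 0.22, adjusted p = 8.73e-05). The stalk subunit Atp5o rose from 1057, 1296 and 1384 to 3274, 3191, 2830 and 3071 (1.31, SE 0.13, adjusted p = 2.51e-05), with 31.0% of its 100-base stretches also found in Gm15976, an antisense gene that overlaps it, so that part of its reads cannot be told apart without the strand.

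Subunit c, which forms the rotating ring, is encoded by 3 genes that yield the same mature protein, and they moved by different amounts. Atp5g3 rose from 2881, 3707 and 3876 reads to 12551, 10187, 8312 and 8768 (1.51, SE 0.18, adjusted p = 5.97e-05). Atp5g1 rose from 1800, 2408 and 2281 to 5974, 4568, 3849 and 4157 (1.10, SE 0.17, adjusted p = 0.000307), and Atp5g2 from 2205, 2786 and 2855 to 4100, 3889, 3583 and 3561 (0.53, SE 0.13, adjusted p = 0.00317). Per length, Atp5g3 and Atp5g2 were close in controls (1599 and 1561 normalized reads per kb), whereas in KA they stood at 4564 and 2259. Atp5g2 lost its call when the trend with gene length was removed (0.14, adjusted p = 0.157). A pair of complex V genes are listed under older symbols that the rule does not match: Usmg5, a membrane subunit, was higher by 1.08 (SE 0.16) and the inhibitor Atpif1 by 0.52 (SE 0.16). The remaining nuclear gene, the pseudogene Atp5l2-ps, had 0 to 5.61 reads in controls and 8.31 to 21.9 in KA (1.95, SE 0.68, adjusted p = 0.018). Its highest count was 7 in controls and 21 in KA, so it had enough reads for the test through the KA libraries.

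The nuclear genes were ordered alike across libraries. Control 1 was the lowest control in 76 of the 80 tested, KA 1 or KA 2 was the highest KA library in 79, and KA 3 or KA 4 the lowest in all 80. Summed normalized reads of all listed genes had a like order. They were 9560358, 9887209 and 10234239 in the controls and 12054678, 11353371, 11185352 and 11131930 in KA 1 to 4. How many of all listed genes share this order was not counted, so it is not shown to be particular to these genes. The median ratio to the control mean over these genes was 0.82, 1.10 and 1.08 in the controls and 2.25, 1.99, 1.77 and 1.73 in KA 1 to 4. The highest KA libraries are the males and the lowest the females, but with 1 male control the interaction of genotype and sex was called in 0 of 100 members by edgeR and 0 of 104 by DESeq2, with none at an unadjusted p under 0.05 by either (smallest p 0.119 and 0.145; 0.0444% of all tested genes were called by edgeR). The median SE of the interaction was 0.32 on the log2 scale in edgeR's fit. Among the KA libraries the males carry lower animal numbers (4855 and 4854) and the females higher ones (4876 and 4877), so sex and run of numbers cannot be told apart there.

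The animal numbers in the titles fall into a pair of runs whose meaning is not stated. In the lower run (controls 1 and 2, KA 1 and KA 2), fitted alone, 80 nuclear genes were called higher with a median of 1.17, and 16 mtDNA genes, beside 47.7% of all tested genes. In the higher run, which has 1 control and gives no test, KA 3 and KA 4 exceeded control 3 in all 104 genes, where 50.8% of all listed genes did so. Among the females fitted alone (2 against 2), 69 nuclear and 14 mtDNA genes were called higher, beside 31.7% of all tested genes.

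**Figure D2:**
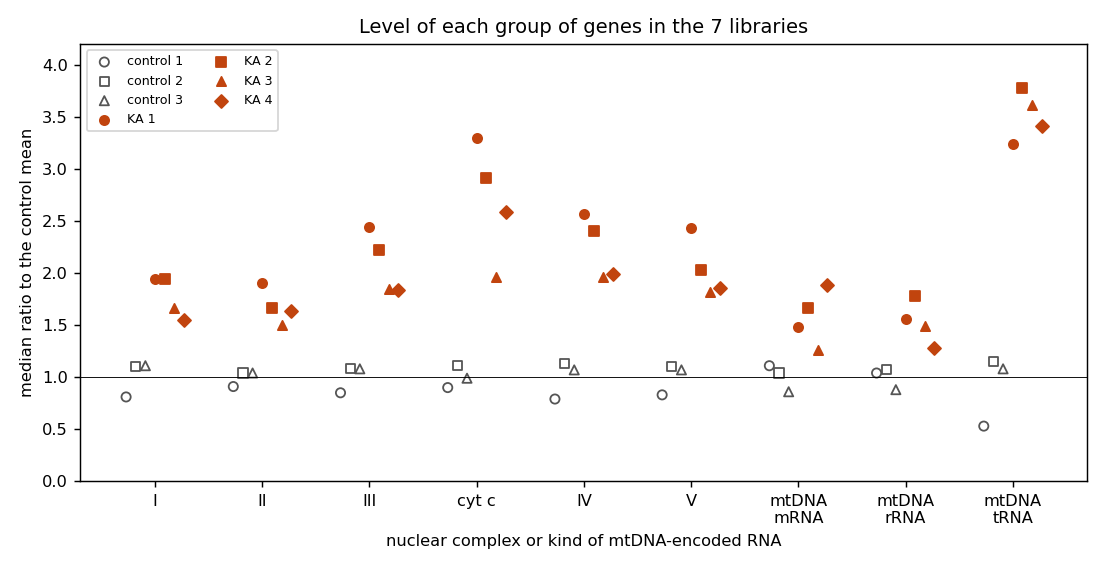
Median over each group of genes of the ratio of a library's normalized reads to the control mean (vertical axis), for the nuclear complexes and the kinds of mtDNA-encoded RNA (horizontal axis); open grey symbols are the 3 controls and filled orange symbols the 4 KA libraries. For nuclear complexes KA 1 and KA 2 lie above KA 3 and KA 4 and control 1 is lowest, whereas for mtDNA messenger RNAs KA 4 is highest (1.89) and control 3 lowest (0.86).

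The messenger RNAs of mtDNA did not share 1 order of libraries. Over the 10 the median ratio to the control mean was 1.11, 1.04 and 0.86 for the controls and 1.48, 1.66, 1.26 and 1.89 for the KA libraries, with control 1 the highest control and KA 4 the highest KA library by this median. That order held gene by gene in mt-Nd1, mt-Nd2, mt-Nd4, mt-Nd5, mt-Co1 and mt-Cytb, while in mt-Nd3, mt-Nd6, mt-Co2 and mt-Atp6 control 1 was the lowest control, as in the nuclear genes. In KA 1, KA 2 and KA 3 the nuclear median ratio (2.25, 1.99 and 1.77) was above the mtDNA one, and in KA 4 it was below (1.73 against 1.89). The summed reads of the messenger RNAs over those of the nuclear genes was 1.06, 0.69 and 0.57 in the controls, overlapping the KA values of 0.47, 0.59, 0.51 and 0.82. Nuclear members took 1.39% to 1.76% of listed reads in controls and 2.53% to 3.03% in KA without overlap, while mtDNA genes took 1.02% to 1.54% and 1.38% to 2.22% with overlap.

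The most abundant mtDNA messenger RNA was mt-Co1, the catalytic subunit of complex IV, with 29421 normalized reads per kb in controls. Its reads numbered 56724, 44122 and 35518 in controls and 54447, 68181, 53100 and 88450 in KA. Control 1 was above KA 1 and KA 3, and the call was marginal (0.54, SE 0.22, adjusted p = 0.0337); it was lost under TMM scaling (adjusted p = 0.11) and without control 2, control 3, KA 2 or KA 4 (adjusted p = 0.085, 0.137, 0.0666 and 0.102). mt-Cytb, the catalytic cytochrome b of complex III, had 27129, 23974 and 19404 reads in controls and 41029, 43530, 31562 and 51794 in KA with no overlap (0.84, SE 0.19, adjusted p = 0.00237).

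Of the 7 complex I messenger RNAs of mtDNA, 6 are listed, and 3 of these overlapped between groups. Of all listed genes, 48.8% had every KA value above every control. mt-Nd2 had 10337, 9991 and 7344 reads in controls and 12844, 14661, 8945 and 17957 in KA (0.56, SE 0.22, adjusted p = 0.0289). mt-Nd4 had 11712, 9700 and 7404 in controls and 12961, 15014, 11334 and 17267 in KA (0.56, SE 0.19, adjusted p = 0.0158). mt-Nd5 had 8300, 5888 and 4407 in controls and 9359, 11212, 7001 and 12962 in KA (0.71, SE 0.25, adjusted p = 0.0181). In all 3 it was KA 3 that fell below control 1. Under TMM scaling these lost their calls (adjusted p = 0.0939, 0.0604 and 0.0534), and without control 3 likewise (0.115, 0.0697 and 0.0666); mt-Nd2 also lost it without KA 2 (0.0627) or KA 4 (0.0836), and mt-Nd5 without control 2 (0.0523). mt-Nd1 had 21727, 19696 and 17913 reads in controls and 28732, 31560, 22649 and 38984 in KA (0.62, SE 0.18, adjusted p = 0.0086).

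mt-Nd6 is the only messenger RNA read from the opposite strand of mtDNA. It had 4974, 6749 and 5906 reads in controls and 10142, 9910, 9482 and 10065 in KA, the smallest KA spread of the 10 in relation to the mean (0.75, SE 0.13, adjusted p = 0.000577). The strand setting of the counting is not given in the sources used here, so its reads cannot be told apart from reads of the precursor on the other strand.

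**Figure D3:**
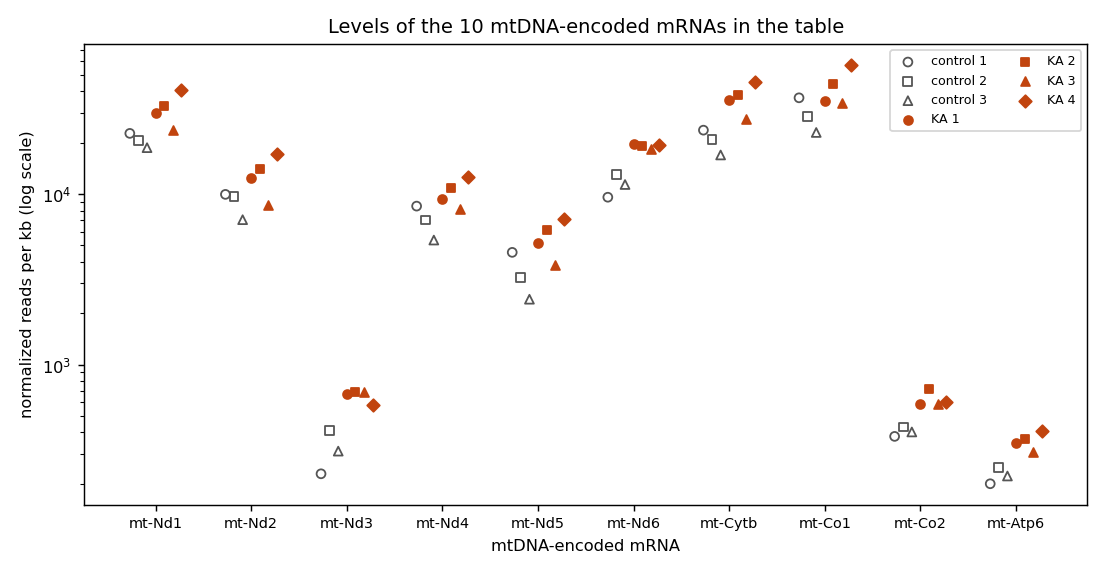
Normalized reads per kb (vertical log axis) of the 10 mtDNA-encoded messenger RNAs (horizontal axis) in the 3 controls (open grey) and 4 KA libraries (filled orange). mt-Nd2, mt-Nd4, mt-Nd5 and mt-Co1 overlap between groups, mt-Nd6 does not, and mt-Nd3, mt-Co2 and mt-Atp6 lie far below the other 7.

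mt-Co2, mt-Atp6 and mt-Nd3 had few reads: 404, 224 and 316 per kb in controls, against 29421 for mt-Co1. These are the messenger RNAs whose sequence also lies almost whole in the nuclear genome, in a row of unprocessed pseudogenes on chromosome 1 of mm10 between 24611535 and 24616197. In GENCODE M21 transcripts, mt-Co2 and Gm28661 share 681 aligned bases with 0 mismatches, and mt-Atp6 and Gm10925 share 678 with 0. Of all 100-base stretches, 99.5% of mt-Co2, 99.5% of mt-Atp6 and 97.6% of mt-Nd3 occur in another gene, against 30.8% of mt-Co1, 60.8% of mt-Nd4 and 0.0% of mt-Nd1, mt-Nd5, mt-Nd6 and mt-Cytb. Reads of these stretches cannot be assigned to 1 genome, so the levels of the 3 are uncertain, and those of mt-Nd4 and mt-Co1 in part. mt-Co2 had 259, 294 and 275 reads in controls and 402, 490, 401 and 411 in KA (0.63, SE 0.14, adjusted p = 0.0026). mt-Atp6 had 136, 170 and 151 in controls and 236, 248, 208 and 276 in KA (0.67, SE 0.18, adjusted p = 0.00566), and mt-Nd3 79.5, 142 and 108 in controls and 235, 241, 241 and 201 in KA (1.06, SE 0.22, adjusted p = 0.00146).

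Of the chromosome 1 copies, 3 are listed, and each was called higher in KA, beside 52.5% of all tested genes. Those of mt-Nd3 and mt-Nd4 (Gm28438 and Gm28439) were not analysed here. Gm28661 had 288, 384 and 358 reads in controls and 507, 551, 492 and 524 in KA (0.60, SE 0.14, adjusted p = 0.00311), beside 0.63 for mt-Co2. Gm10925 was higher by 0.51 (SE 0.17, adjusted p = 0.0164) and Gm29216, which aligns with 492 bases of mt-Co1 with 6 mismatches, by 0.62 (SE 0.15, adjusted p = 0.00268).

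The ribosomal RNAs of mtDNA had a median close to that of the messenger RNAs (0.62 and 0.65), but KA 4 was their lowest KA library by the median ratio (1.28) and the highest for the messenger RNAs (1.89). mt-Rnr1, of the small subunit, had 2885, 2755 and 1980 reads in controls and 3746, 4320, 4227 and 2857 in KA, where KA 4 fell within the controls (0.58, SE 0.18, adjusted p = 0.0103). mt-Rnr2, of the large subunit, had 3268, 3675 and 3428 in controls and 5681, 6430, 4595 and 5056 in KA without overlap (0.65, SE 0.14, adjusted p = 0.00154).

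The 11 transfer RNA genes are 59 to 71 bases long and few reads fell on them, and reads of a transfer RNA cannot be told apart there from those of precursors and neighbouring RNAs. In each of the 11 the KA values lay above the controls, as they did in 48.8% of all listed genes, and 8 had enough reads for the test. mt-Tp, the proline transfer RNA, was by far the best covered, with 91.8, 77.3 and 77.8 reads in controls and 267, 269, 255 and 280 in KA (1.70, SE 0.18, adjusted p = 3.2e-05). mt-Tn (1.56, SE 0.34) and mt-Tc (2.10, SE 0.44) reached 164 and 168 reads in their highest KA library from at most 64.9 and 44.3 in controls. mt-Tl2 (1.72, SE 0.37), mt-Th (1.87, SE 0.45), mt-Tw (1.39, SE 0.42) and mt-Te (2.75, SE 0.71) were called on fewer reads. mt-Tt was called with 0, 0 and 1.6 reads in controls and 10.1 to 15.6 in KA. By its mean it was at least 4.69-fold higher against a floor of 3 counts per control. The highest control counts of mt-Th, mt-Te and mt-Tt were 9, 8 and 2, against 24, 30 and 15 in KA. These genes had enough reads for the test through the KA libraries, so their calls are not separate evidence of a rise. mt-Tr, with 0 to 1.6 reads in controls and 4.18 to 12.9 in KA, was at least 2.78-fold higher by its mean against the same floor of 3 counts. It had only 4 counts in KA 2 and 4 in KA 3, close to that floor. mt-Tg had 0.947 to 4.81 reads in controls and 6.76 to 17.8 in KA, and mt-Ts2 1.89 to 5.61 and 7.27 to 27.2. Over the 8 tested the median ratio to the control mean was 0.53 in control 1, 1.15 and 1.08 in controls 2 and 3 and 3.24 to 3.78 in KA. Control 1 was however the highest control for mt-Tp and mt-Tw.

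Gene length moves with the fold change in this table, and most of these genes are short. The median length in the table was 1696 bases for the 78 nuclear protein-coding members tested and 4153 for other protein-coding genes. Below 1000 bases, 19 nuclear members had a median log2 fold change of 1.02 and 185 other listed genes of 0.91, of which 76.2% were higher in KA. From 1000 to under 2000 bases the medians were 1.00 (28 members) and 0.63 (752 others, 73.3% higher). From 2000 to under 4000 bases they were 0.91 (21 members) and 0.48 (2029 others, 61.3% higher). At 4000 bases and over they were 0.96 (10 members) and -0.44 (3205 others, 42% higher). The nuclear members thus kept nearly the same median across the 4 ranges while that of the other genes fell from 0.91 to -0.44, and the gap was smallest among the shortest genes. Across genes, which are not independent, log2 fold change went with log2 length at r = -0.16 (rho = -0.14) over the 78 members and r = -0.23 (rho = -0.22) over 6171 other genes.

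The length in the table can exceed that of the spliced messenger RNA (6443 bases for Atp5l), so classes by coding length were added after the table was seen. Below 300 coding bases, 19 nuclear members had a median of 1.13 and 143 other genes of 0.76. From 300 to under 600 bases the medians were 0.90 (37) and 0.56 (700), from 600 to under 1200 they were 0.97 (14) and 0.49 (1829), and from 1200 they were 0.84 (8) and -0.43 (3493). By this measure the members themselves went with length at r = -0.37 (rho = -0.38).

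A fit that removes the length trend in each library gave lower values. The nuclear median fell to 0.63 with 67 of 80 called higher, and complex medians lay between 0.51 (I) and 0.88 (V) among the 5 complexes, beside 0.11 over all genes tested, of which 43.3% were called higher. Ndufb3 and Ndufb11 came to -0.05 and -0.01. The mtDNA messenger RNAs fell to a median of 0.10, with 0 of 10 called, and 3 of the 20 mtDNA genes tested (transfer RNAs) kept a call.

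**Figure D4:**
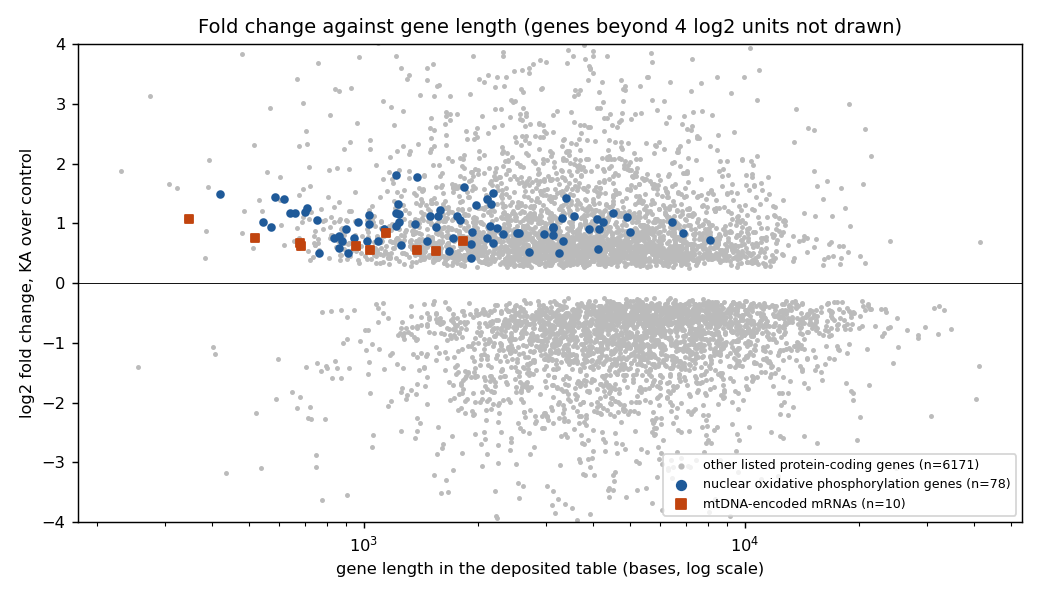
Log2 fold change (vertical axis) against gene length in the deposited table (horizontal log axis) for the listed protein-coding genes tested, with nuclear members in blue, mtDNA-encoded messenger RNAs in orange and the other genes in grey. Nuclear members stay near 1 at all lengths (medians 0.91 to 1.02), while the grey genes of 4000 bases and over lie mostly below 0 (median -0.44).

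Promoter sequence was described because the nuclear members moved together. RefSeq windows on GRCm38.p6, from 250 bases before to 50 after the gene's start, were found for 63 of the 81 nuclear members. The motifs searched on both strands were the core of nuclear respiratory factor 1 (NRF1), GCGCATGC, an ETS core bound by GABP, CCGGAAG, a YY1 core, AAGATGG, and the NFY box, CCAAT. NRF1 and GABP are known activators of respiratory chain genes. The NRF1 core was held by 12 members (19%), against 5% of 5201 other listed genes and 3.05% of all 27025 genes. The ETS core was held by 17 (27%), against 16.3% and 9.93%, and the YY1 core by 11 (17.5%), against 7.52% and 7.28%. The NFY box was about as common in members (41.3%) as in other listed genes (42%) and all genes (41.1%). Atp5k, Atp5l, Cox6a1, Sdhb and Uqcr11 held both the NRF1 and the ETS core, and 33 of the 63 held at least 1 of NRF1, ETS and YY1 cores. A match is a string of letters and does not show binding.

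The following stretches lie before the start of 4 members that hold the NRF1 core: Cycs (1.43), Cox6a1 (1.18), the assembly factor Ndufaf4 (0.91) and the complex I subunit Ndufa11 (0.71). These are the members with the core in the 180 bases before the RefSeq start and outside the gene's own span in the table. Each stretch is written 5′ to 3′ on the gene's strand in lower case, with the NRF1 core in capitals. Where the core overlaps its own reverse complement the capitals run over 10 bases. The stretches lie at chr6:50566570-50566749 (minus strand), chr5:115348982-115349138 (minus), chr4:24897903-24898082 (plus) and chr17:56717582-56717761 (plus), with the core beginning 60, 162, 113 and 60 bases before the RefSeq start. That of Cox6a1 leaves off the 23 bases next to the RefSeq start, which lie within the gene's span in the table. Its ETS core, beginning 16 bases before that start, is therefore not shown.
Cycs: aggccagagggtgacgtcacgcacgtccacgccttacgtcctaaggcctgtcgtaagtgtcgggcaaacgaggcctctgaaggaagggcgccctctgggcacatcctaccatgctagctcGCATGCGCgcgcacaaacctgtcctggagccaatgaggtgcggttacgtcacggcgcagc
Cox6a1: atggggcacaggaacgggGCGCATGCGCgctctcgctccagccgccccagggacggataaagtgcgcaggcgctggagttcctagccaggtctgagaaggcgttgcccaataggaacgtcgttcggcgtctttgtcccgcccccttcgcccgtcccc
Ndufaf4: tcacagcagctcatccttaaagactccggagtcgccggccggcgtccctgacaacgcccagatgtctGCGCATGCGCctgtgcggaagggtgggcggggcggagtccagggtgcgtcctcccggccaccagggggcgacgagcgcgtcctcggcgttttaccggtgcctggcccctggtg
Ndufa11: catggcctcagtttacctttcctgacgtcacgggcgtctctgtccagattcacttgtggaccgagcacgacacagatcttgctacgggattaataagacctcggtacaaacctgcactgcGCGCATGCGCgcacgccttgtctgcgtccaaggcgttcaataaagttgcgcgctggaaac

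Other genes of the pathway were read from lists, and did not all move with the members. For comparison with the counts below, 52.5% of all tested genes were called higher and 47.5% lower. Of 40 assembly factors outside the rule, 19 are in the table, 17 called higher and 2 lower (median 0.57). Uqcc2, needed for complex III, rose from 987, 1128 and 1036 reads to 2156, 2378, 2006 and 1952 (1.02, SE 0.12), and Cox10, which makes heme for complex IV, from 188, 236 and 195 to 611, 403, 409 and 473 (1.20, SE 0.19). Surf1, a complex IV assembly factor, fell from 700, 862 and 845 to 422, 539, 610 and 558 (-0.59, SE 0.15), and the copper chaperone Cox17 fell by 0.87 (SE 0.28). Of 31 regulators of mitochondrial biogenesis and genes of mtDNA expression, 9 are listed, 8 called higher and 1 lower. Ppargc1b, a coactivator of mitochondrial genes, had 71, 71.1 and 89 reads in controls and 205, 233, 146 and 236 in KA (1.41, SE 0.23), and the nuclear receptor Esrra was higher by 0.74 (SE 0.11). Polrmt, the RNA polymerase of mtDNA, was higher by 0.36 (SE 0.14), and Polg2, the accessory subunit of its DNA polymerase, fell from 236, 246 and 285 reads to 123, 126, 143 and 120.

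Of 20 genes of ubiquinone synthesis and other electron entry, 17 are listed, 13 called higher and 4 lower, where 52.5% of all tested genes were called higher. Pdss1, part of the enzyme that makes the ubiquinone side chain, was higher by 1.91 (SE 0.32), and Gpd2, which feeds electrons from glycerol phosphate, by 1.66 (SE 0.23). Prodh, which feeds them from proline, fell from 1388, 1424 and 1553 reads to 454, 543, 531 and 505 (-1.52, SE 0.12), and Coq8a, Coq10b and Coq2 fell by 1.09, 0.53 and 0.43. Of 19 genes for carriers, uncoupling and low oxygen, 10 are listed and the 9 tested were called higher. Among them Slc25a5, an ADP/ATP carrier, was higher by 1.26 (SE 0.14), the phosphate carrier Slc25a3 by 0.95 (SE 0.15) and Egln3, an oxygen-sensing hydroxylase, by 1.68 (SE 0.25).

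Markers of other states and cells moved with the groups. The counts below stand beside 52.5% of all tested genes called higher and 47.5% called lower. All 18 listed proliferation genes of 20 were called higher, with summed reads of 7007 to 9061 in controls and 16067 to 29668 in KA. All 9 markers of Langerhans and dendritic cells were higher (24817 to 34122 against 47435 to 73094), as were 10 of 11 sebaceous gland markers, the 10 listed (25653 to 39951 against 52881 to 72679). The 8 listed keratinocyte markers of 14 were split 4 higher and 4 lower, with sums of 652764 to 726376 and 1086167 to 1164877. Krt5, Krt14, Krt1 and Sfn were higher, and Krt15, Col17a1, Dsg1a and Itgb4 lower. Krt15 fell most, from 148772, 179661 and 196411 reads to 18090, 39308, 70040 and 32720 (-2.13, SE 0.37). Of 14 skeletal muscle markers, 1 is listed, Tnni2, at 3.79 to 11.3 reads in controls and 35.3 to 55.2 in KA. The 3 adipocyte markers listed of 10 summed to 155 to 396 and 804 to 1032, and the 2 endothelial ones of 7 to 11.4 to 28.9 and 51.2 to 84.1. The T cell list had 4 higher and 3 lower of 7 listed (of 11) and the melanocyte list 0 and 2 of 2 (of 7). Of 12 neutrophil and monocyte markers, 3 are listed: Cxcr2, a chemokine receptor of neutrophils, rose from 0, 1.03 and 4.01 reads to 386, 220, 220 and 289 (7.17, SE 0.52), Lyz2 was higher by 1.76 (SE 0.40) and Il1r2, the most abundant of the 3, fell by 1.05 (SE 0.19), so that the summed reads were lower in KA (2029 to 2687 against 1319 to 1740). The part of these cells and of proliferation in the rise of the oxidative phosphorylation genes was not tested.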

How the data were processed

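Read counts per gene, with the authors' normalized reads, were deposited by the authors as 1 table of 7091 genes for 7 libraries. Per the labels' protocols, the library kit was NEBNext Ultra RNA. The submitters' processing notes name fastp, STAR 2.6.1d, featureCounts 1.5.0-p3, DESeq2 1.40.2 and mm10, with no roles; the strand setting is not given in the sources used here. Per the file headers, the normalized reads are a signal the authors made by dividing counts by 1 size factor per library (relative error at most 4.9e-10), and the table also holds the authors' log2 fold change, test score and p-values before and after adjustment. The largest adjusted p-value the authors deposited is 0.04995.

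Counts were fitted with edgeR 4.0.16 in R 4.3.3 on group alone, with the authors' size factors as library scale, filterByExpr (330 genes left out, among them Cox4i2, mt-Tg, mt-Tr and mt-Ts2), robust glmQLFit and glmQLFTest, Benjamini-Hochberg adjustment and a threshold of 0.05. The SE was derived from the fold change and F. The biological coefficient of variation common to all genes came to 0.193. The code was tested on simulated data. Groups and sexes come from the titles. Floors are 3 counts per library and cover counting error only.

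Members and lists were chosen with earlier results of these data known. Named genes were, per complex, the 3 nuclear members with the smallest adjusted p of the authors, members opposite to their complex (none), every mtDNA gene and isoform pairs; others were named after their values were seen, as ends of a range or for their role. The alternatives were other scaling, no filter, DESeq2 1.42.0, each library left out, blocks, sex and run covariates, runs and females alone, a length correction (lowess of log ratio against log length, span 0.3), wider adjustment and a threshold of 0.01. Shared stretches are 100-base windows of the longest GENCODE M21 transcript found on either strand in other genes' transcripts. A permutation test planned on the mtDNA share of reads is not given, since only values are reported for summed members.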

Additional observations from a re-analysis of the deposited data

Results flagged for a closer look

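In each group of 4 KA libraries of the 43 named members, the gap between an end value and its neighbour was set against the whole range, which flags about 1 group in 20 by chance, or about 2.1 of 43. For mt-Co2, KA 2 stood apart on the high side, at 490 normalized reads with the others at 401 to 411, a gap of 0.887 of the range and above the 95% critical value of Dixon's test for 4 values. For mt-Nd3, KA 4 stood apart on the low side, at 201 with the others at 235 to 241, a gap of 0.853. Both are among the messenger RNAs whose sequence is shared with nuclear copies almost whole.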

How the results depend on the processing

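Of 21 other settings, none reversed the direction of a median or of a member named by rule; Ndufb3 and Ndufb11 came slightly below 0 with the length correction. Counts of nuclear members called higher ran from 78 to 80 when 1 library was left out, with medians of 0.83 to 1.03. Those of mtDNA members ran from 17 to 21 with medians of 0.72 to 0.95, and all members together gave 96 to 100. In the same fits 46.8% to 51.7% of all tested genes were called higher. In the lower run of animal numbers alone the nuclear median moved to 1.17. The correction for gene length moved most: the nuclear median to 0.63, the mtDNA median to 0.31 and the mtDNA count to 3, with 0.10 for the median of the 10 mtDNA messenger RNAs; 18 of 39 named members lost their call there, 17 of them encoded in mtDNA and the other Atp5g2. The cause was not tested. Adjusting over the 19407 genes of the authors' own adjustment left 78 nuclear and 17 mtDNA members called (45.9% of all tested genes were called higher), and an adjusted p under 0.01 left 77 and 15 (40.1%). Without a filter or with DESeq2, which add low transfer RNAs, the mtDNA median was 1.06 and 1.07.

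Deviations of same-numbered libraries correlated at -0.192, 0.129 and -0.097 for the numbers 1 to 3. The KA library closest to control 2 was KA 2, while those closest to controls 1 and 3 were KA 4 and KA 1. So few values cannot decide whether the sample numbers in the titles pair the libraries. With a replicate block by sample number 80 nuclear and 18 mtDNA members were called (medians 1.02 and 0.74), beside 47.4% of all tested genes called higher. There mt-Nd2 (adjusted p = 0.0522) and mt-Co1 (0.122) lost their call, where the fit without the block gave 80 and 20. The titles also carry a letter, A to C, which joins the same libraries as the numbers 1 to 3 and puts KA 4 with C. With a replicate block by this letter 80 and 19 were called (medians 0.95 and 0.84), beside 51.1% of all tested genes called higher, and mt-Co1 lost its call (0.56, adjusted p = 0.0592). The depth of whole libraries is unknown, since the table holds listed genes only, and it limits most the transfer RNAs and Cox4i2.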
